A study of Mus musculus with 6 samples.

Results

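The genes examined here encode the proteins that move Ca2+ between the cytosol, the sarcoplasmic reticulum and the outside of the cardiomyocyte. They are 10 genes, chosen by symbol from the 27307 gene symbols on the array: the pump gene Atp2a2, its small inhibitors Pln and Sln, the release channel Ryr2, the store buffers Casq2 and Casq1, the L-type channel Cacna1c, the exchanger Slc8a1, the dyad tether Jph2 and the kinase Camk2d. Their 26 probes were read in total myocardial RNA of 6 male C57BL/6J mice, on a 1-colour array each. All 6 were Clk4-cKO, that is, Clk4 fl/fl animals in which tamoxifen-activated Cre under the cardiomyocyte α-MHC promoter had removed CDC-like kinase 4, so controls and treated animals alike lacked the kinase in cardiomyocytes. The control group (NEXN-WT, 3 mice) had received AAV carrying wild-type nexilin, and the other (NEXN-S437E, 3 mice) AAV carrying the phosphomimetic nexilin S437E, both driven by the CMV promoter, which is not restricted to cardiomyocytes. Hearts with intact Clk4 and hearts without vector were not analysed here, so a value is a difference between 2 forms of nexilin on 1 genetic background.

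At each heartbeat, Ca2+ enters through the L-type channel in the T-tubule and opens ryanodine receptors across the dyad, the narrow cleft that junctophilin holds together. The store, buffered by calsequestrin, empties into the cytosol, and the SERCA pump refills it while the sodium-calcium exchanger removes the remainder. Phospholamban and sarcolipin slow the pump, and CaM kinase II phosphorylates phospholamban, the release channel and the L-type channel. In failing and hypertrophied hearts these proteins are known for altered amount and phosphorylation, of which the array reads only the mRNA.

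A probe of 60 bases reads a short stretch of its transcript, and 6 of the 10 genes carry more than 1. The sequences of 3 probes are given because they read a different stretch from another probe of the gene or, for Slc8a1, are its single probe well above background on all arrays. They are printed 5′ to 3′ in the transcript's sense with mm9 coordinates, and no base is marked by capitals. The Ryr2 probe covers 453 bases of the genome, more than its own length, so it crosses a splice junction.
Atp2a2 probe A_52_P168097, chr5:122910660-122910719, minus strand: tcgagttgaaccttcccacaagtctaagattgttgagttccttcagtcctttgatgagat
Ryr2 probe A_55_P2737124, chr13:11792652-11793104, minus strand: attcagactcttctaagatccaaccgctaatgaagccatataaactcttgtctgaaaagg
Slc8a1 probe A_55_P2080758, chr17:81844837-81844896, minus strand: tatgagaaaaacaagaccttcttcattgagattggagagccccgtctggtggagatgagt

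Values are log2 of the background-corrected signal minus the 75th percentile of its own array, so 1 unit is 2-fold, and a value of 0 lies at that percentile. Signals of different probes are not comparable with each other, so only differences between arrays are read. A probe was tested when it was well above background on all 3 arrays of a group, which held for 18 of the 26 member probes and for 9 of the 10 genes. The exception was Sln. Differences are NEXN-S437E minus NEXN-WT from limma, with the Benjamini-Hochberg adjustment over all 22998 tested probes. Each array was taken to stand for a separate animal, as the legend of the study's microarray figure counts 3 animals per group.

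No member probe passed the adjusted threshold of 0.05 (0.161% of all tested probes did), and none passed 2-fold with an unadjusted p under 0.05 (2.52% did). At an unadjusted p under 0.05, 1 of the 18 member probes was found (5.56%), against 17.2% of all tested probes. The log2 differences ran from -0.39 to 0.71 with a median of 0.18, and the median over all tested probes was 0.09. An estimate above 0 was seen for 15 of the 18 (83.3%), against 60.8% of all tested probes. For 14 of the 18 the 95% interval lay within 2-fold in both directions, and the wider ones were A_52_P168097 of Atp2a2, A_55_P2737124 of Ryr2, A_66_P113376 of Casq2 and the Casq1 probe. The tests called no difference in these transcripts, which with 3 arrays a group does not show that there was none. The 95% interval given with each tested gene is the guide to its size, and the wider ones reach past 2-fold.

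NEXN-WT replicate 1 stood apart. Its mean absolute log2 difference from the other NEXN-WT arrays was 0.38 and 0.44, while those 2 differed from each other by 0.25. It was the lowest NEXN-WT array for 15 of the 18 member probes (83.3%), against 50.4% of all tested probes. The median member probe was 0.45 below the mean of the other NEXN-WT arrays, against 0.11 for all tested probes. Without this array the median member difference was 0.05, equal to the 0.05 of all tested probes, 11 of the 18 estimates were above 0, and no member probe had an unadjusted p under 0.05. Other genes moved in this array too: among NEXN-WT arrays it was the lowest for 8 of 10 cardiomyocyte markers and the highest for 6 of 8 fibroblast markers. A summed level here is the log2 of the sum of a list's linear signals, so the brightest probes weigh most. In the 3 NEXN-WT arrays it was 11.4, 11.78 and 11.80 for cardiomyocyte markers and 9.995, 9.31 and 9.41 for fibroblast markers. The part of these in the member values was not tested.

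**Figure D1:**
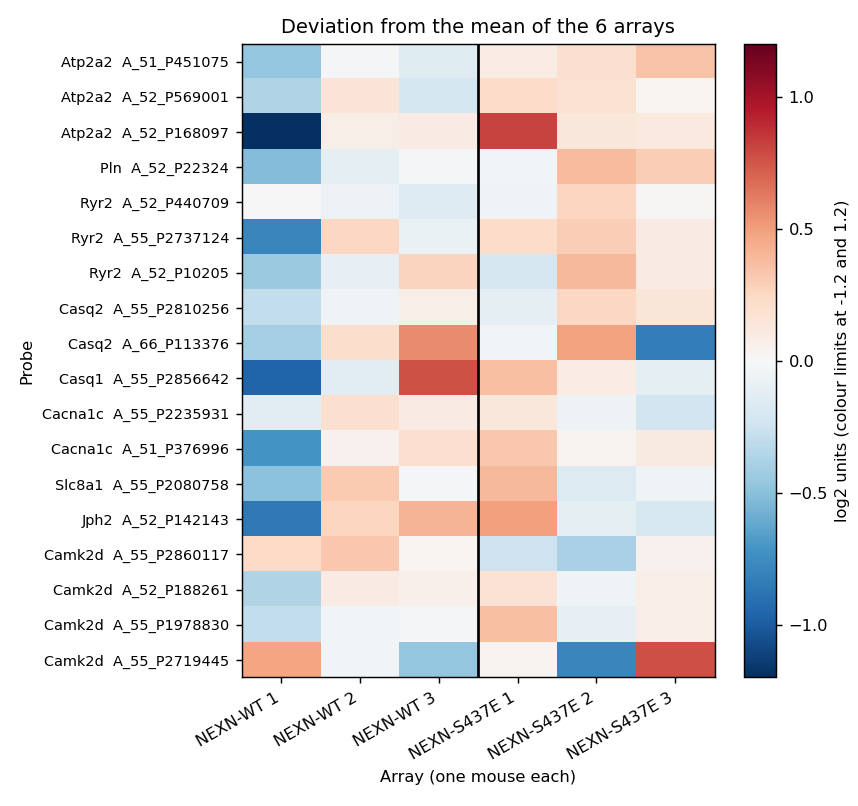
Deviation of each tested member probe (rows) from its mean over the 6 arrays (columns), in log2 units. The column of NEXN-WT replicate 1 is blue for most probes, deepest for A_52_P168097 of Atp2a2, Casq1 and Jph2, while Camk2d probe A_55_P2719445 is red there.

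Atp2a2, which encodes the SERCA2 pump that refills the store, was the single member with an unadjusted p under 0.05 on the main scale. Its representative probe, the brightest, read 6.00, 6.46 and 6.33 in NEXN-WT and 6.56, 6.66 and 6.81 in NEXN-S437E, so the groups did not overlap (27.9% of all tested probes did not overlap either). The difference was 0.42 (SE 0.17, 95% interval 0.03 to 0.80, adjusted p = 0.267, limma), or 1.33-fold. On the values the authors normalized it was 0.18 (adjusted p = 0.559, limma) and the groups overlapped, quantile normalization gave 0.18 (adjusted p = 0.56, limma), and without NEXN-WT replicate 1 it was 0.29. A second Atp2a2 probe, A_52_P569001, read 2.38, 2.89 and 2.53 against 2.96, 2.92 and 2.76, which overlapped, and differed by 0.28 (95% interval -0.12 to 0.68).
The third Atp2a2 probe, A_52_P168097, lies 6956 bases upstream of the brightest one in the genome. It read 2.75, 4.07 and 4.10 against 4.81, 4.13 and 4.11. The groups did not overlap, but 1 array of each group stood far from the rest: NEXN-WT replicate 1 was low and NEXN-S437E replicate 1 was high, and the other 4 arrays lay between 4.07 and 4.13. The difference of 0.71 (95% interval -0.16 to 1.59, adjusted p = 0.357, limma) became 0.27 without NEXN-WT replicate 1. Over 4513 genes with several probes, the median difference of the most upstream from the most 3′ probe, centred over the arrays, was -0.06 in NEXN-WT replicate 1 and 0.05 in NEXN-S437E replicate 1, and between -0.01 and 0.02 in the other arrays. Its part in the Atp2a2 result was not tested.

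Pln, the gene of phospholamban, has 1 probe, which read 5.41, 5.82 and 5.92 in NEXN-WT and 5.90, 6.32 and 6.23 in NEXN-S437E. The lowest NEXN-S437E array lay just under the highest NEXN-WT one, so the groups overlapped. The difference was 0.43 (SE 0.19, 95% interval -0.02 to 0.87, adjusted p = 0.299, limma). It was 0.20 on the authors' normalized values, 0.28 without NEXN-WT replicate 1 and 0.18 with the arrays of slide row 1 alone. With arrays weighted by their quality it passed the threshold (0.40, adjusted p = 0.042, limma), as did 16.6% of all tested probes under that setting.
The probe of Sln, whose product sarcolipin inhibits the pump mainly in atria, cleared background in 2 mice with NEXN-WT and in 1 with NEXN-S437E. It read -3.42, -5.79 and -3.26 against -5.05, -2.9 and -5.5. Both groups scattered over more than 2 units, and no test was made. Of 6 atrial marker genes, Bmp10 and Mybphl were well above background on no array. The summed level of this list was 2.17 to 3.21 in NEXN-WT and 1.45 to 1.89 in NEXN-S437E. Its members did not move one way: among the 3 tested, Myl4 differed by -0.62 and Dkk3 by -3.34, but Kcnj3 by 0.80. The part of these in the Sln values was not tested.

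**Figure D2:**
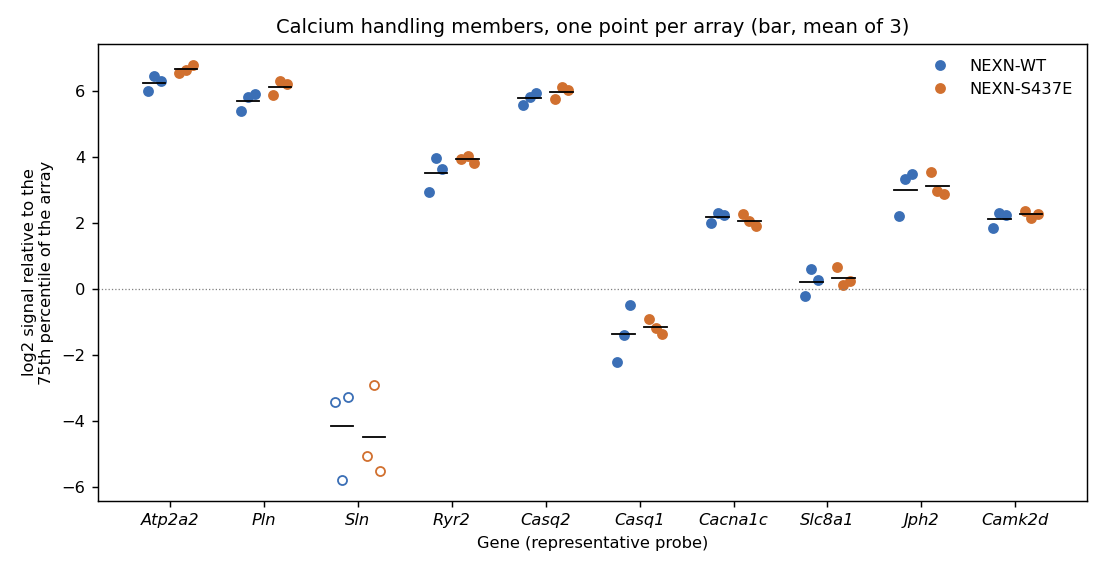
Log2 signal of the representative probe of each member gene relative to the 75th percentile of its array, 1 point per array and a bar at the mean of 3; open points mark a group not well above background on all its arrays. Heights of different genes are not comparable; the groups separate for Atp2a2 alone and both scatter widely for Sln.

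Ryr2, the ryanodine receptor that releases Ca2+ from the store, had 3 tested probes spread over 217728 bases of the genome. The most 3′ probe, A_52_P440709, read 3.16, 3.09 and 3.01 in NEXN-WT and 3.12, 3.42 and 3.18 in NEXN-S437E, with no low value in NEXN-WT replicate 1. It differed by 0.15 (95% interval -0.19 to 0.49). The junction probe A_55_P2737124, shown above, read 2.95, 3.98 and 3.65 against 3.95, 4.03 and 3.83. Here NEXN-WT replicate 1 was the low array, and the difference of 0.41 (95% interval -0.17 to 1.00) became 0.13 without it. The most upstream probe, A_52_P10205, differed by 0.19 (95% interval -0.34 to 0.71).
Casq2, the cardiac calsequestrin that buffers Ca2+ inside the store, read 5.59, 5.84 and 5.95 against 5.77, 6.13 and 6.03 with its brightest probe. These overlapped, and the difference of 0.18 (95% interval -0.21 to 0.57) turned to -0.05 on the authors' normalized values. The upstream probe A_66_P113376 was dim, well above background on 3 and 2 arrays, and differed by -0.25 (95% interval -1.08 to 0.58).
Casq1, the calsequestrin of skeletal muscle, read -2.22, -1.39 and -0.49 against -0.89, -1.17 and -1.37. The NEXN-WT arrays enclosed all NEXN-S437E arrays, and the difference of 0.22 (95% interval -0.67 to 1.12) turned to -0.20 without NEXN-WT replicate 1. The summed level of 10 skeletal muscle markers was 4.90 to 5.47 in NEXN-WT and 4.19 to 4.75 in NEXN-S437E, with Myh1 and Actn3 well above background on no array. This sum follows the bright Myl1 (-0.84), while the median difference of the 6 tested markers was 0.22. Myh4 was at 0.82, tested only through NEXN-S437E, with 2 of 3 NEXN-WT arrays well above background. Tnnt3 was lower in NEXN-S437E and well above background on none of its arrays, so no fold is given. The part of these in the Casq1 values was not tested.

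Cacna1c, the pore subunit of the L-type channel that triggers release, read 2.00, 2.33 and 2.24 in NEXN-WT and 2.27, 2.07 and 1.91 in NEXN-S437E with its brightest probe. The arrays intermingled, and the difference was -0.11 (95% interval -0.48 to 0.27). Leaving out 1 array gave from -0.20 (without NEXN-WT replicate 1 or NEXN-S437E replicate 1) to -0.018 (without NEXN-S437E replicate 3), and -0.037 without NEXN-WT replicate 2. The difference was -0.31 with array weights and above 0 with slide row as a block. A second tested probe, A_51_P376996, pointed the other way, with 0.01, 0.78 and 0.93 against 1.05, 0.77 and 0.84. Its difference of 0.31 (95% interval -0.26 to 0.88) rested on the low value in NEXN-WT replicate 1 and was 0.03 without it. The remaining 2 Cacna1c probes were well above background on no array.
Slc8a1, the sodium-calcium exchanger NCX1, read -0.21, 0.61 and 0.28 against 0.68, 0.13 and 0.25 with the probe shown above. The groups overlapped, and the difference of 0.13 (95% interval -0.43 to 0.68) turned to -0.09 without NEXN-WT replicate 1. Its other 3 probes were not tested. Of these, A_55_P2292435 cleared background in 2 mice with NEXN-WT and in none with NEXN-S437E, but its NEXN-WT mean of -3.34 was under the detection bound of -3.27, so no fold is given.

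Jph2, whose product junctophilin-2 ties the T-tubule to the store, read 2.22, 3.34 and 3.48 against 3.57, 2.97 and 2.88. NEXN-WT replicate 1 was more than 1 unit below the other NEXN-WT arrays, and NEXN-S437E fell between these extremes except for its highest array. The difference of 0.13 (95% interval -0.67 to 0.93) turned to -0.27 without NEXN-WT replicate 1.
Camk2d, the main cardiac CaM kinase II, had 4 tested probes that did not share a direction. Its brightest, A_52_P188261, read 1.85, 2.31 and 2.27 against 2.38, 2.16 and 2.29 and differed by 0.14 (95% interval -0.26 to 0.53). The most 3′ probe, A_55_P2860117, read -0.83, -0.75 and -1.05 against -1.33, -1.46 and -1.02, lower in NEXN-S437E apart from a single crossing. Its difference was -0.39 (SE 0.17, 95% interval -0.78 to 0.0046, adjusted p = 0.293, limma) and -0.37 without NEXN-WT replicate 1. On the authors' normalized values, with quantile normalization and with the percentile over detected probes, it took the place of Atp2a2 as the single member probe with an unadjusted p under 0.05. The other tested probes differed by 0.23 and 0.02, and 2 further probes were not tested. Camk2d is spliced into several isoforms, and which of them each probe reads was not determined here.

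**Figure D3:**
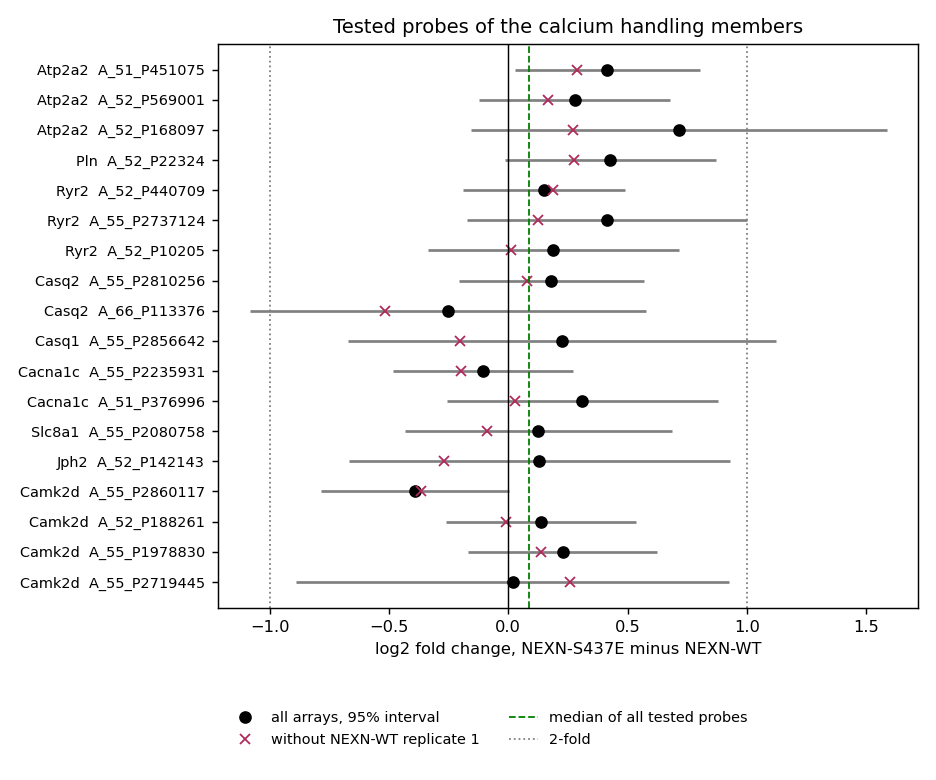
Log2 difference, NEXN-S437E minus NEXN-WT, of the 18 tested member probes with 95% intervals (points and lines), the same value without NEXN-WT replicate 1 (crosses), the median of all tested probes (dashed) and 2-fold (dotted). All but 1 interval, that of the brightest Atp2a2 probe, include 0, and most crosses lie to the left of their points.

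The balance between partners was read as a difference of representative probes within each array, which removes the scaling of the array. Pump inhibitor against pump, Pln minus Atp2a2, was -0.54 ± 0.12 (SD, n = 3) in NEXN-WT and -0.53 ± 0.17 in NEXN-S437E, a change of 0.01 (exact two-sided permutation p = 0.9). Sln minus Atp2a2 changed by -0.75 (exact p = 0.6), and by -0.031 with normexp. Its Sln probe, near background, cleared it on 2 of 3 NEXN-WT and 1 of 3 NEXN-S437E arrays, so neither value is read as a change. Release channel against buffer, Ryr2 minus Casq2, changed by 0.23 (exact p = 0.4), with NEXN-WT at -2.65, -1.86 and -2.31 and NEXN-S437E at -1.82, -2.10 and -2.20. It uses the Ryr2 junction probe, which was low in NEXN-WT replicate 1. The most 3′ Ryr2 probe differed by 0.15, less than the 0.18 of this Casq2 probe. Exit against entry, Slc8a1 minus Cacna1c, changed by 0.23 (exact p = 0.2), with -2.21, -1.72 and -1.96 against -1.59, -1.94 and -1.66. The groups overlapped in all 4, and 3 arrays against 3 cannot give an exact p below 0.1. Without NEXN-WT replicate 1 the Ryr2 minus Casq2 change was 0.047 and the Slc8a1 minus Cacna1c change 0.11, and the latter was 0.024 with the median over tested probes. Without NEXN-WT replicate 2 the Ryr2 minus Casq2 change was 0.44 and the Slc8a1 minus Cacna1c change 0.35. Leaving out 1 array took Sln minus Atp2a2 from -1.66 (without NEXN-WT replicate 2) to -0.17 (without NEXN-S437E replicate 3).

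**Figure D4:**
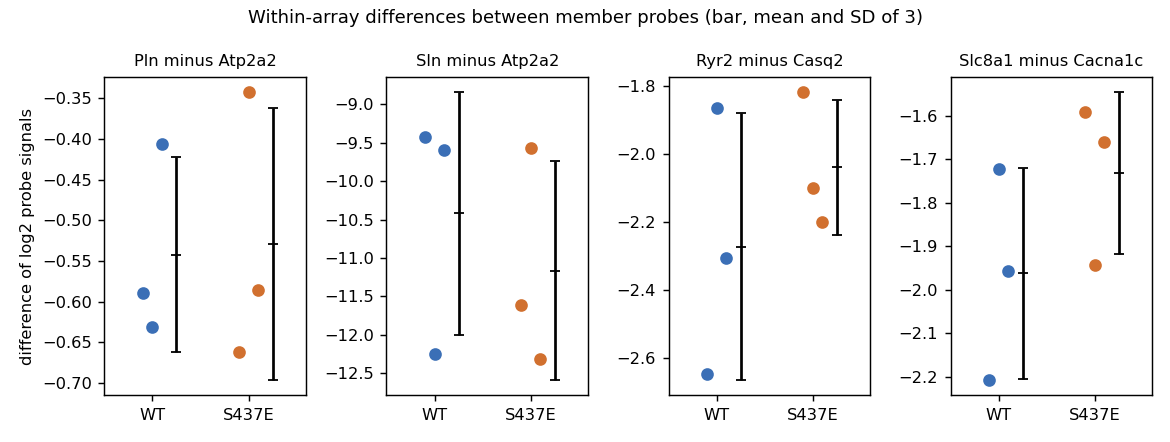
Within-array difference of 2 representative probes in log2 units, 1 point per array with the mean and SD of 3 per group, each panel on its own axis. NEXN-WT and NEXN-S437E overlap in all 4 panels, and only the shift between groups can be read, not the height.

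The wider calcium handling list held 111 genes, 110 of them on the array and 96 tested with 159 probes. None of the 159 passed the adjusted threshold (lowest adjusted p = 0.082, limma), 2 passed 2-fold with an unadjusted p under 0.05 (2.52% of all tested probes did), both higher in NEXN-S437E, and 33 (20.8%, against 17.2% of all tested probes) had an unadjusted p under 0.05, 20 higher and 13 lower. On the authors' normalized values the split was 13 higher and 16 lower. Leaving out 1 array gave from 11 higher and 8 lower (without NEXN-S437E replicate 3) to 28 higher and 12 lower (without NEXN-WT replicate 3), and the arrays of slide row 1 alone gave 5 higher and 8 lower. With array weights 22 of the 159 (13.8%, against 16.6% of all tested probes) passed the adjusted threshold, Nfatc4, Jsrp1, Camkk1 and Cacna1s among them. Without NEXN-WT replicate 1, 1 of the 159 passed it (0.63%, against 0.56% of all tested probes). It was a probe of Cacnb2, an L-type channel subunit named after its values were seen (1.201, adjusted p = 0.0445, limma). Another Cacnb2 probe was at 0.80 in that setting (adjusted p = 0.408, limma). The 2 past 2-fold on the main scale were Cacna1s, the L-type pore subunit of skeletal muscle (1.07, SE 0.36, adjusted p = 0.221, limma), and Camk2a, a CaM kinase II isoform (1.06, SE 0.33, adjusted p = 0.2, limma). The Camk2a probe was well above background on 1 of 3 NEXN-WT arrays, so it was tested only through NEXN-S437E, where it is higher. Its difference rests on NEXN-WT values near background, and with the filter on all 6 arrays it was not tested. A second, brighter Camk2a probe differed by 0.53 (adjusted p = 0.395, limma). Without NEXN-WT replicate 1 the differences were 0.67 for Cacna1s and 0.70 for Camk2a. Which genes passed depended on the scaling. On the authors' normalized values they were Cacna1s (1.00) and, lower in NEXN-S437E, Cacna1g, a T-type channel pore subunit (-1.01), while Camk2a was at 0.92. Cacna1g, named after its values were seen, was at -0.999 on the main scale, just short of 2-fold.
By role, all 7 probes with an unadjusted p under 0.05 among other SERCA pumps and regulators were higher in NEXN-S437E, of 21 tested (33.3%, against 17.2% of all tested probes). On the authors' normalized values 4 of the 21 had such a p. Without NEXN-S437E replicate 1 there were 3 higher and 1 lower, without NEXN-S437E replicate 3 there were 3 higher, and within slide row 1 there were 0. The 7 came from 4 genes, with 3 probes of Dhrs7c and 2 of Akap7. The gene named for each role had the largest difference among probes well above background on all 6 arrays. In this role it was Dhrs7c, a reductase of the sarcoplasmic reticulum, whose 3 probes differed by 0.59, 0.73 and 0.83, with no overlap between groups. Its brightest probe read 3.30, 4.48 and 4.37 in NEXN-WT, and the difference was 0.46 without NEXN-WT replicate 1.
Among release channels and junctional partners 5 of 34 probes were higher and 1 lower at that threshold (17.6%, near the 17.2% of all tested probes). The named gene was Jsrp1, a junctional membrane protein (-0.67, adjusted p = 0.138, limma). Itpr2, an inositol trisphosphate receptor chosen after its values were seen, was at 0.83 (adjusted p = 0.131, limma) with a dimmer probe. That probe was well above background on 2 of 3 NEXN-WT arrays, so it was tested only through NEXN-S437E, where it is higher. Of the 20 probes of calcium channel subunits, 3 were higher and 4 lower at that threshold (35%, against 17.2% of all tested probes).
Among dyad and T-tubule genes it was Jph1, the skeletal muscle junctophilin (0.72, adjusted p = 0.278, limma), at 0.42 without NEXN-WT replicate 1. Camkk1, an activating kinase of other CaM kinases, was named for the CaM kinase role, after Camk2a, at -0.93 (adjusted p = 0.196, limma) and at -0.61 without NEXN-WT replicate 1.
In the calcineurin arm Nfatc4, a transcription factor that calcineurin activates, read 0.93, 0.95 and 0.76 against 0.09, 0.11 and 0.04, with no overlap. This difference of -0.80 (SE 0.14, adjusted p = 0.082, limma) was the one nearest to the adjusted threshold in the list and was -0.78 without NEXN-WT replicate 1. A second, dimmer Nfatc4 probe, well above background on 1 of 3 NEXN-S437E arrays, differed by -0.34 (adjusted p = 0.297, limma). Stim1, the sensor of store depletion, was named for the store-operated role (-0.76, adjusted p = 0.24, limma). This value was -0.46 without NEXN-S437E replicate 1 and -1.37 within slide row 1, and a second Stim1 probe differed by -0.34 with overlapping groups.

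The summed levels of several marker lists differed between the groups. The summed level of 10 cardiomyocyte markers was 11.4 to 11.8 in NEXN-WT and 12.04 to 12.07 in NEXN-S437E, with all 10 well above background on all arrays. None of the 10 passed the adjusted threshold and 5 had an unadjusted p under 0.05, while on the authors' normalized values the sums overlapped (19.13 to 19.24 against 19.13 to 19.26) and none had such a p. The summed level of 8 fibroblast markers was 9.31 to 9.995 against 8.82 to 8.92, where none of the 8 passed the adjusted threshold, 4 passed 2-fold with an unadjusted p under 0.05 and Dcn differed by -0.08. Without NEXN-WT replicate 1, Col1a1, Col3a1 and Postn passed the adjusted threshold. The sum of 6 T and NK cell markers was 2.45 to 3.38 against 0.57 to 0.94, and 4 of the 5 tested were past the adjusted threshold. The 5 B and plasma cell markers summed to -0.14 to 0.22 against -1.01 to -0.88, with Cd79a and Ms4a1 well above background on no array and 1 of the 2 tested past the adjusted threshold. The 4 hypertrophy genes summed to 9.49 to 9.68 against 8.40 to 8.55. Of these Nppa passed the adjusted threshold (-1.39), Myh7 and Acta1 were past 2-fold with an unadjusted p under 0.05, and Nppb differed by 0.036. Without NEXN-WT replicate 1 Acta1 passed the adjusted threshold as well. Macrophage, endothelial and smooth muscle sums overlapped between the groups. The part of these in the member values was not tested, and in bulk RNA fewer cells of a type and less RNA per cell cannot be told apart. A probe of Nexn read 3.84, 3.35 and 3.26 against 3.18, 3.43 and 3.89, and the brightest Clk4 probe was well above background on all 6 arrays at 1.12 to 1.63. Neither checks the labels, as both groups carried a nexilin vector and both lacked Clk4 in cardiomyocytes alone.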

How the data were processed

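The authors hybridized Cy3-labelled cRNA from total RNA to 1-colour mouse arrays and, per the labels, read them with Agilent Feature Extraction 10.7.1.1. The deposited array files hold intensity values per spot, and the deposited series table holds raw intensity and log2 normalized values, whose array medians are all equal to 2 decimals. The files name mm9. Here, the log2 of the processed signal minus the array's 75th percentile was used, outlier spots were left out, and spots of a probe were averaged. limma 3.58.1 (R 4.3.3) compared 3 arrays with 3, on probes that cleared background on each array of 1 group or both, with Benjamini-Hochberg adjustment. The script was tested on simulated data. The representative probe of a gene was the brightest of those well above background on all 6 arrays. From the wider list, the genes named were those with a probe past 2-fold and an unadjusted p under 0.05, or past the adjusted threshold, and in each role the largest difference among probes well above background on all 6 arrays. For 1 role that gene is not reported here. Alternatives covered scaling, background correction, filters, blocks, array weights, the methods' t-test and leaving out each array. The number of arrays limits the precision. All arrays came from 1 slide and 1 scan, with NEXN-WT 1 to 3 and NEXN-S437E 1 in row 1. The 75th percentile signals were 110 to 273, and 41.9% to 47.8% of spots were well above background. The members and lists were chosen with earlier results of these data known.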

Additional observations from a re-analysis of the deposited data

How the results depend on the processing

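No member probe passed the adjusted threshold under any alternative except with array weights (1 probe, Pln), and none passed 2-fold with an unadjusted p under 0.05. Of 180 alternative values for the 9 tested representative member probes, 160 kept their direction and their side of the threshold, 1 (Pln) passed it, and 19 changed sign, from -0.33 to 0.10; the cause was not tested. The untested Sln difference (-0.33) ran from -1.15 to 0.27 over 11 alternatives and changed sign in 4. Member probes at an unadjusted p under 0.05 (1 in the report) numbered 2 with the filter on all 6 arrays and 2 with an intensity trend. Of all tested probes 17.6% and 18.2% had such a p there. With array weights there were 4 of the 18, against 35.1% of all tested probes. There were 0 with the methods' t-test (13.7% of all tested probes) and 0 with slide row as a block (2310 of all 22998). Leaving out 1 array gave 0 (without NEXN-WT replicate 1 or NEXN-S437E replicate 2) to 3 (without NEXN-WT replicate 2 or 3). The shares of all tested probes were then 13.8% and 10.4%, and 16.4% and 21.9%, in the same order. Where the number was again 1, the probe was not always the same: it was the brightest of Atp2a2 with outlier spots kept, A_52_P168097 of Atp2a2 with normexp, A_55_P2860117 of Camk2d in 4 settings (both other scalings, the authors' values and without NEXN-S437E replicate 3), Pln with the replicate block, and A_55_P2292435 of Slc8a1 without a filter. All tested probes past the adjusted threshold (37) numbered 24 with normexp, 7 without a filter, 20 with the filter on all 6 arrays, 0 with the t-test, 24 with the slide row block, 0 within slide row 1, 80 with a trend, 3820 with array weights, and 12 (without NEXN-WT replicate 2) to 128 (without NEXN-WT replicate 1). The wider list's probes past 2-fold and the unadjusted threshold (2) numbered 0 with normexp, 5 without a filter, 1 with the filter on all 6 arrays, 0 with the t-test, 8 with slide row as a block and 8 within row 1, and 0 (without NEXN-S437E replicate 1) to 8 (without NEXN-WT replicate 2). NEXN-S437E has 2 of its 3 arrays in slide row 2 and NEXN-WT has none.

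Pln minus Atp2a2 (0.01) was -0.12 within slide row 1, and -0.082 (without NEXN-S437E replicate 2) to 0.081 (without NEXN-WT replicate 3) on leaving out 1 array. The median over probes is taken on the signal levels of each array, though levels of different probes are not comparable. For Atp2a2 that median is probe A_52_P168097 alone, and Pln minus Atp2a2 was then -0.29. Casq2 was -0.057 with quantile normalization, -0.055 on the authors' values, -0.030 both with slide row as a block and within row 1, and -0.037 as the median over probes. Cacna1c was 0.082 in both slide row settings and 0.10 as the median over probes. With array weights Slc8a1 was -0.28, Jph2 -0.33, Camk2d -0.025 and Ryr2 0.0071. Jph2 was -0.010 with normexp. Camk2d was -0.081 as the median over probes, which here averages the 2 probes of middle level, A_55_P2860117 (-0.39) and A_55_P1978830 (0.23). That value is not the median of the probe differences. Leaving out 1 array gave -0.20 to 0.66 for Casq1, -0.090 to 0.32 for Slc8a1, -0.27 to 0.36 for Jph2 and -0.0084 to 0.22 for Camk2d, the lowest always without NEXN-WT replicate 1. The same gave 0.29 to 0.51 for Atp2a2, 0.28 to 0.55 for Pln, 0.13 to 0.64 for Ryr2 and 0.079 to 0.29 for Casq2, again lowest without that array.

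Same-numbered arrays did not deviate together (correlations of -0.15, -0.03 and -0.18), and differently numbered ones gave -0.07 to 0.18. With 3 arrays a group these correlations cannot decide whether the numbers pair the samples. The main fit used no pairing. With a replicate block 37 probes passed the adjusted threshold; in this balanced design the block cannot change a difference of group means, such as the 0.01 of Pln minus Atp2a2. The 75th percentile over detected probes moved the median of all tested probes by -0.08. Only 3 arrays a group and probes near background, such as those of Sln, limit what could be called.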
